A study of Arabidopsis thaliana with 12 samples.

Results

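The 3 arrays of gnc gnl double mutant seedlings were compared with the 3 wild-type (WT) arrays, 6 of the 12 arrays of the series, over 19020 genes. The gnc gnl plants carry mutations in both GNC and GNL, with no ARF2 mutation in the label, while WT is the Col-0 accession of Arabidopsis thaliana. Both genotypes were whole seedlings, 10 days old, raised without treatment on GM medium under 150 µE white light in days of 16 h light and 8 h dark, and collected at midday of the light phase. The remaining 6 arrays, 3 of the mutant arf2-8 (arf2 below) and 3 whose label reads arf2-8 gnc gnl (arf2 gnc gnl below), entered the fit, where they add to the estimate of the spread, link the slides and count in the filter that decides which genes were tested. The labels do not give the alleles of gnc and gnl. The series design calls the 3 samples of a genotype independent biological samples, so n = 3 arrays per genotype, or 2 where a value is said to be missing because its spot was an outlier.

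GNC and GNL encode a pair of closely related class B GATA transcription factors. They are known for promoting greening, chlorophyll synthesis and chloroplast division, for acting downstream of gibberellin and auxin signalling and of light and cytokinin, and for repressing germination and flowering. The comparison asks which transcripts of the seedling depend on the pair when ARF2 is intact.

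Values below are scaled signals, in which the 75th percentile of each array is set to 100, and log2 changes are gnc gnl minus WT with their standard error. A gene passed when the adjusted p of limma's moderated test was under 0.05. The 75th percentile of the 6 arrays lay between 2282 and 2864 intensity units, with 66.4% to 68.4% of all probes called well above background by the scanner software. The number of arrays limits the precision. In bulk seedlings, fewer cells of a type and less RNA per cell cannot be told apart.

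Genotype and slide coincided in this comparison. The 3 WT arrays were on slide 1 with arf2 replicate 1, and the 3 gnc gnl arrays were on slide 3 with replicate 3 labelled arf2 gnc gnl. Within these 6 arrays the 2 effects cannot be told apart. The libraries labelled arf2 gnc gnl went against that label in GNL, which read 36.0, 38.4 and 38.4 there. ARF2 read 106, 101 and 131 in these libraries, below every WT and gnc gnl array but still above the 75th percentile of the array. A signal does not show which ARF2 allele they carry. GNC was low in them, at 9.83, 8.69 and 8.63. Without these libraries 4054 genes passed. A fit with slide as a block reads the difference only through the arrays of the other genotypes, and its median standard error was 0.226 against 0.102 without the block. Where the value of arf2 replicate 1 was missing, as in NIR1 and TIC20-I, no slide 3 against slide 1 term was obtained. The change of those genes was the same in both fits. Of 19020 genes, 4686 passed without the block (24.6%, with 12.5% higher and 12.1% lower in gnc gnl), and 29 passed with it (0.152%, and 2713 at an unadjusted p under 0.05). The count was 2376 without WT replicate 2. Of the 4686, 4478 (95.6%) kept their direction with the block, compared with 74.5% of all tested genes. Both fits use the same arrays and the 4686 were selected by their change, so a higher share is built in. It does not separate genotype from slide. The median change of the genes that passed was 0.45 for those higher and -0.41 for those lower. Of 1006 tested genes in the pathway and marker lists used below, 292 passed without the block (29.0%), and GNC, LOG1, RVE1 and HSP17.6II were the 4 that passed with it (185 at an unadjusted p under 0.05). For RVE1 the change and its standard error were nearly the same in both fits, so its pass cannot be read as adjusted for slide.

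Both mutated genes were far lower in gnc gnl. GNC (AT5G56860) read 6.78, 9.05 and 6.02 in gnc gnl, against 148, 172 and 142 in WT, a log2 change of -4.42 ± 0.13 (adjusted p = 5.11e-08) that was -4.42 with slide as a block (adjusted p = 0.00969). GNL (AT4G26150, CGA1 in the reference table) read 1.43, 0.491 and 0.511 in gnc gnl, not well above background on any array, against 22.1, 24.4 and 18.1 in WT. It was at least 9.51-fold lower (adjusted p = 1.52e-05). For both genes every gnc gnl array lay far below every WT array. ARF2 (AT5G62000) read 169, 198 and 160 in gnc gnl, against 189, 177 and 193 in WT, and the groups overlapped.

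The other class B GATA genes differed little from WT. Of 11 listed genes 10 were tested, and besides GNC and GNL, 2 passed, both higher in gnc gnl. GATA16 (AT5G49300) read 4.25, 5.39 and 5.34 in gnc gnl, against 2.79, 2.69 and 2.95 in WT, where it was not well above background, so it was at least 1.77-fold higher (adjusted p = 9.69e-04), though its change was -0.32 under a normexp background correction. GATA15 (AT3G06740) read 142, 123 and 141 in gnc gnl, against 116, 119 and 106 in WT, a change of 0.25 ± 0.08 (adjusted p = 0.0399). GATA17 (AT3G16870, 0.17 ± 0.08), GATA17L (AT4G16141, -0.20 ± 0.12), GATA18 (AT3G50870, -0.01 ± 0.13), GATA19 (AT4G36620, 0.35 ± 0.14), GATA20 (AT2G18380, 0.07 ± 0.10) and GATA23 (AT5G26930, -0.30 ± 0.17) did not pass. Leaving out any array other than gnc gnl replicate 2 left 1 of the 2 rises. Of 17 tested GATA genes of the other classes, GATA6 (AT3G51080, -0.36 ± 0.08) and GATA28 (AT1G51600, -0.27 ± 0.08) fell, at a list median of 0.05, and 1 of them passed without any single array other than gnc gnl replicate 1.

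Transcripts of the genes beside the mutated loci were also read, a choice made after their values were seen. BGAL12 (AT4G26140), which encodes a beta-galactosidase and lies 2 genes from GNL in the annotation, read 113, 93.0 and 94.0 in gnc gnl, against 39.2, 34.9 and 34.9 in WT (1.46 ± 0.12, adjusted p = 4.58e-05). BGAL4 (AT5G56870), another beta-galactosidase gene and the direct neighbour of GNC, read 510, 488 and 374 in gnc gnl, against 211, 189 and 184 in WT (1.22 ± 0.17, adjusted p = 0.00124). AT5G56880, next to BGAL4, rose by 1.1 ± 0.08. In all 3 genes every gnc gnl array was above every WT array. The libraries labelled arf2 gnc gnl read 59.7, 71.3 and 57.1 for BGAL12 and 164, 195 and 171 for BGAL4. On the other side, ACHT1 (AT4G26160), a thioredoxin gene beside GNL, fell by 0.37 ± 0.08, and AT5G56850 beside GNC fell by 0.58 ± 0.19. Among the 10 protein-coding genes on each side, 4 of 13 tested passed around GNC (30.8%) and 4 of 15 around GNL (26.7%), against 24.6% of all genes.

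**Figure D1:**
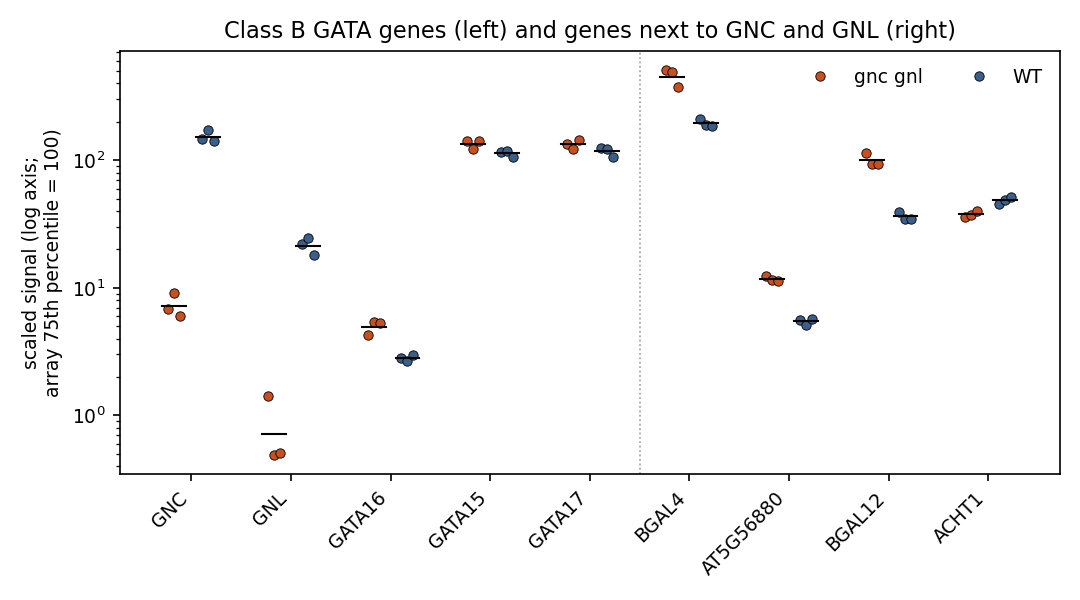
Scaled signal on a log axis of 5 class B GATA genes (left of the dotted line) and 4 genes near GNC or GNL (right), with 1 point per array for gnc gnl (orange) and WT (blue) and a bar at the mean of the log2 values. GNC and GNL are far lower in gnc gnl, GATA15 and GATA17 nearly level, and BGAL4, AT5G56880 and BGAL12 higher on all 3 gnc gnl arrays.

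Among nuclear genes of plastid gene expression, 8 were lower in gnc gnl. Of 17 genes for GLK factors, sigma factors and plastid transcription, 8 fell (47.1%, against 12.1% of all genes), and the list median was -0.33, against 0.0041 over all tested genes. In 12 of the 17 the arrays of the groups did not overlap (42.5% of all genes), and 16 lay below 0, while 50.7% of all genes lay above 0. GLK1 (AT2G20570), an activator of photosynthesis genes, read 277, 351 and 348 in gnc gnl, against 409, 450 and 455 in WT (-0.44 ± 0.11, adjusted p = 0.0178). SIG4 (AT5G13730), a sigma factor that guides the plastid RNA polymerase to promoters, read 94.2, 112 and 108 in gnc gnl, against 163, 170 and 160 in WT (-0.66 ± 0.08, adjusted p = 4.47e-04). In both genes the groups were separate. SIG2 (AT1G08540) fell by 0.45 ± 0.08, the nuclear-encoded plastid RNA polymerase SCA3 (AT2G24120) by 0.54 ± 0.11, the retrograde signalling gene GUN1 (AT2G31400) by 0.33 ± 0.08, and the plastid transcription complex genes PTAC3 (AT3G04260) by 0.48 ± 0.12, PTAC12 (AT2G34640) by 0.43 ± 0.13 and PTAC2 (AT1G74850) by 0.31 ± 0.10. GLK2 (-0.18, adjusted p = 0.109) and SIG1, SIG3, SIG5 and SIG6 (-0.10, -0.10, -0.30 and -0.24) did not pass. All 17 lay below 0 with slide as a block, at a median of -0.45. The falls numbered 3 without WT replicate 2, and without gnc gnl replicate 2 or under median scaling 5.

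Of 28 plastid ribosomal protein genes 5 fell (17.9%, against 12.1% of all genes). All 28 lay below 0, from -0.51 to -0.06, with a median of -0.28 (-0.24 with slide as a block). Their summed signal, with missing values here and in later sums set to the genotype mean, was 32100 to 43440 in gnc gnl and 41020 to 49600 in WT, which overlapped. RPS1 (AT5G30510) read 394, 356 and 437 in gnc gnl, against 559, 620 and 513 in WT (-0.51 ± 0.10, adjusted p = 0.00642), and EMB3113 (AT2G33800) fell by 0.45 ± 0.12. The count depended on single arrays, since 18 passed without gnc gnl replicate 3, 2 without gnc gnl replicate 1, 3 without WT replicate 3 and 1 without any of the other 3 arrays. Quantile normalization gave 16 falls, and median scaling or normexp 1. Of 18 genes for import of proteins into the plastid, 3 fell, while 12.1% of all genes fell, at a list median of -0.16. The import receptor gene TOC33 (AT1G02280) read 149, 140 and 174 in gnc gnl, against 217, 228 and 196 in WT (-0.47 ± 0.10, adjusted p = 0.00917). TOC64-III (AT3G17970, -0.29 ± 0.07) and TOC90 (AT5G20300, -0.20 ± 0.06) were the others, and 1 gene passed without gnc gnl replicate 2 or WT replicate 1 or 2 and 2 without WT replicate 3.

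Of 14 genes for chloroplast division 7 fell (50%, against 12.1% of all genes), 13 lay below 0, and the median was -0.23 with and without slide as a block. PDV2 (AT2G16070), an outer envelope protein that recruits the division ring, read 45.3, 49.5 and 48.8 in gnc gnl, against 58.1, 64.0 and 60.7 in WT (-0.35 ± 0.08, adjusted p = 0.00906). No other probe of PDV2 met the filter, and its change was 1.1 with the mean of all probes, which takes in probes outside the filter. MCD1 (AT1G20830, -0.31 ± 0.07), PARC6 (AT3G19180, -0.30 ± 0.08), ARC3 (AT1G75010, -0.22 ± 0.07) and PDV1 (AT5G53280, -0.23 ± 0.08) fell, as did the ring placement genes MINE1 (AT1G69390, -0.45 ± 0.11, 2 WT values) and MIND (AT5G24020, -0.33 ± 0.10). These changes were small, and 2 of 14 passed without WT replicate 2 and 3 without WT replicate 1 or gnc gnl replicate 2. Under a normexp background correction 2 passed, and under median scaling 3.

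Carotenoid and isoprenoid synthesis had 11 lower genes. Of 21 genes 11 fell (52.4%, against 12.1% of all genes), 19 lay below 0, and the median was -0.26 (-0.32 with slide as a block). BETA-OHASE2 (AT5G52570), a carotene hydroxylase, read 137, 130 and 172 in gnc gnl, against 247, 284 and 230 in WT (-0.80 ± 0.11, adjusted p = 0.00104). NPQ1 (AT1G08550), the violaxanthin de-epoxidase of photoprotection, fell by 0.61 ± 0.08. The groups did not overlap in either gene. The carotenoid cleavage enzyme CCD4 (AT4G19170) fell by 0.58 ± 0.12, and PSY (AT5G17230), which makes phytoene in the first committed step, by 0.24 ± 0.06. Also lower were the desaturase PDS3 (AT4G14210, -0.28 ± 0.08), the cyclases LUT2 (AT5G57030, -0.34 ± 0.08) and LYC (AT3G10230, -0.30 ± 0.09), the zeaxanthin epoxidase ABA1 (AT5G67030, -0.39 ± 0.12) and 3 enzymes of the plastid isoprenoid pathway, HDR (AT4G34350, -0.39 ± 0.07), DXR (AT5G62790, -0.33 ± 0.10) and MCT (AT2G02500, -0.29 ± 0.09). The falls numbered 4 without WT replicate 2, without gnc gnl replicate 2, 6, and without WT replicate 1 or 3, 7. Under normexp or median scaling 4 passed.

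Chlorophyll synthesis changed at single steps. Of 27 genes 4 fell and 1 rose (18.5%, against 24.6% of all genes), with a median of -0.14. PORA (AT5G54190), a protochlorophyllide oxidoreductase best known from etiolated seedlings, read 6.04, 4.07 and 4.55 in gnc gnl, against 26.7, 22.8 and 16.6 in WT (-2.17 ± 0.31, adjusted p = 0.00135, and -0.81 with slide as a block). PORC (AT1G03630), the isoform of mature green tissue, read 608, 605 and 632 in gnc gnl, against 917, 1030 and 967 in WT (-0.66 ± 0.09). The arrays of both genes were separated by genotype. CAO (AT1G44446), which makes chlorophyll b, fell by 0.27 ± 0.07, and the cyclase subunit CRD1 (AT3G56940) by 0.29 ± 0.08. HEMA2 (AT1G09940), which encodes a glutamyl-tRNA reductase, rose by 0.33 ± 0.09. Without WT replicate 2, 2 genes fell, as under normexp and median scaling, and HEMA2 did not pass without gnc gnl replicate 2 or 3 or any single WT array. Of 13 genes of the heme branch and chlorophyll breakdown, 5 fell, while 12.1% of all genes fell. The 5 were PPH (AT5G13800, -0.54 ± 0.09) and CLH2 (AT5G43860, -0.56 ± 0.11, 2 gnc gnl values), which remove the phytol tail or are assigned to that step, NOL (AT5G04900, -0.44 ± 0.09), which reduces chlorophyll b, HY2 (AT3G09150, -0.47 ± 0.11), which makes the phytochrome chromophore, and the ferrochelatase FC2 (AT2G30390, -0.36 ± 0.10, 2 gnc gnl values).

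Few genes of the photosynthetic apparatus passed. Of 24 nuclear photosystem subunit genes, 0 passed in limma's test (3 at an unadjusted p under 0.05, all lower), while 2 fell without gnc gnl replicate 3 and 2 under quantile normalization. Their range was -0.29 to 0.13 and the median -0.01. Of 21 light-harvesting genes, 3 fell and 1 rose, at a median of -0.07. LHCB2.1 (AT2G05100) read 216, 233 and 263 in gnc gnl, against 309, 357 and 329 in WT (-0.48 ± 0.09), while its other probe changed by -0.09. LHCB7 (AT1G76570, -0.41 ± 0.09) and LHCA6 (AT1G19150, -0.42 ± 0.12) fell, and LHCB4.3 (AT2G40100, 0.31 ± 0.09) rose. The summed signal of the light-harvesting list spanned 164300 to 205700 in gnc gnl and 171800 to 201500 in WT, so the groups overlapped. Of 14 genes for electron transport and ATP synthase, PGRL1A (AT4G22890, -0.39 ± 0.11) and the plastocyanin PETE1 (AT1G76100, -0.40 ± 0.12) fell. Of 26 genes for the Calvin cycle and photorespiration, GLDP1 (AT4G33010, -0.43 ± 0.12) and CP12-2 (AT3G62410, -0.40 ± 0.12) fell. Over all genes 12.5% rose and 12.1% fell. Light harvesting had 1 fall without WT replicate 2 and 5 without gnc gnl replicate 3, and 0 rises without gnc gnl replicate 3 or any single WT array. Electron transport had 1 fall without WT replicate 1 and 0 without any other single array except gnc gnl replicate 3. The Calvin cycle list had 0 falls without gnc gnl or WT replicate 2 and 1 without gnc gnl replicate 1 or WT replicate 3. It had 5 under quantile normalization, 8 with the lowest passing probe and 0 under median scaling or normexp. A difference between these lists and the lists above was not tested.

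**Figure D2:**
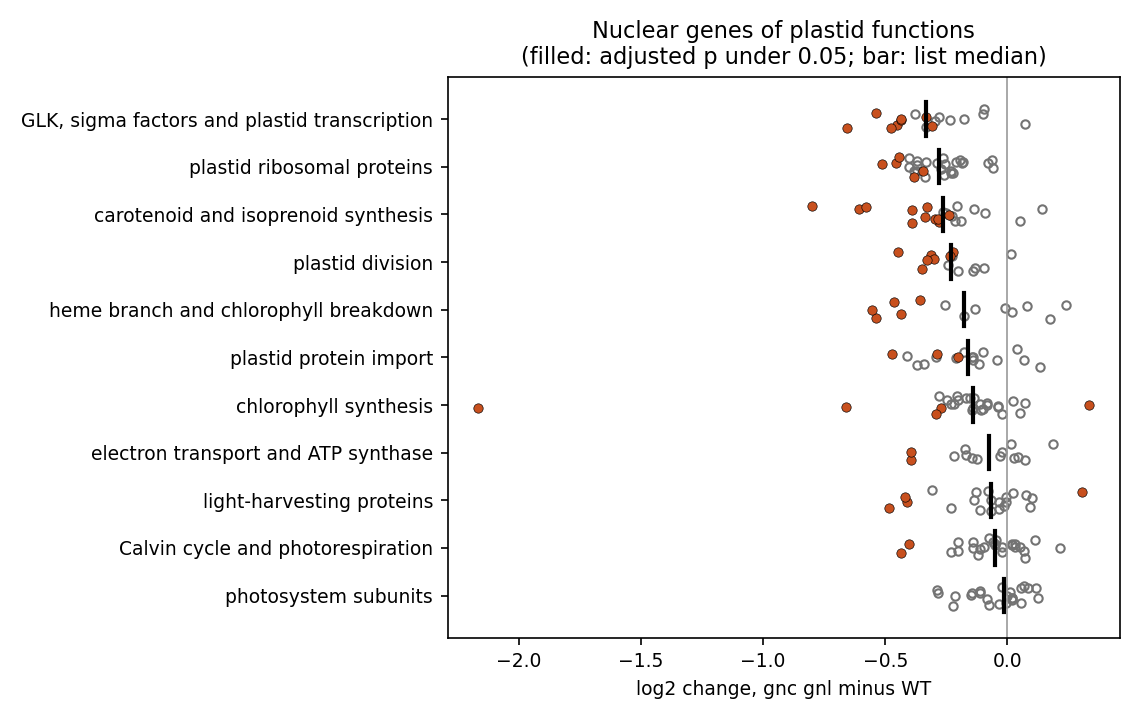
Log2 change (gnc gnl minus WT) of each tested nuclear gene in 11 lists of plastid functions, with 1 point per gene, filled where the adjusted p was under 0.05, and a black bar at the list median. The lists of plastid transcription, ribosomal proteins, carotenoids and division lie left of 0, while photosystem subunits, Calvin cycle and light-harvesting genes centre near 0.

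Of the genes for uptake and use of nitrogen, 12 were higher in gnc gnl and 19 did not pass. Of 31 tested genes 12 rose (38.7%, against 12.5% of all genes), and the median was 0.23 (0.14 with slide as a block). NRT1.1 (AT1G12110), a nitrate transporter and sensor, read 919, 1060 and 992 in gnc gnl, against 614, 571 and 658 in WT (0.69 ± 0.09, adjusted p = 9.10e-04). LBD38 (AT3G49940), a nitrate-induced transcription factor, read 889, 838 and 1150 in gnc gnl, against 501, 528 and 454 in WT (0.95 ± 0.18). Every gnc gnl array exceeded every WT array in both. NIA1 (AT1G77760), a nitrate reductase, rose by 0.60 ± 0.17, the nitrite reductase NIR1 (AT2G15620) by 0.36 ± 0.10, and UPM1 (AT5G40850), which makes the siroheme precursor, by 0.63 ± 0.10. The glutamate dehydrogenases GDH1 (AT5G18170, 0.32 ± 0.06) and GDH2 (AT5G07440, 0.64 ± 0.10), the glutamine synthetase GLN1.1 (AT5G37600, 0.40 ± 0.09), the glutamate synthase GLT1 (AT5G53460, 0.47 ± 0.09, 2 WT values), the high-affinity uptake partner WR3 (AT5G50200, 0.56 ± 0.11), the phloem loader NRT1.7 (AT1G69870, 0.54 ± 0.13) and the vacuolar nitrate transporter CLCA (AT5G40890, 0.35 ± 0.08) also rose. The 2 other probes of GLT1 changed by only 0.08 and 0.15, and the other probes of GLN1.1 by 0.12 to 0.68. Leaving out any 1 of the 6 arrays left 10 to 12 rises, and normexp gave 10.

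Among cell wall loosening genes, the rises included 9 xyloglucan endotransglucosylases, which join and cut wall xyloglucan. Of 37 tested genes 13 rose and 3 fell (43.2%, against 24.6% of all genes), and the median was 0.26 (0.29 with slide as a block). XTH33 (AT1G10550) read 56.2, 64.7 and 75.7 in gnc gnl, against 18.6, 15.7 and 14.5 in WT (2.01 ± 0.25, adjusted p = 6.76e-04, and 1.07 with slide as a block). XTH15 (AT4G14130) read 244, 192 and 273 in gnc gnl, against 91.3, 74.0 and 65.9 in WT (1.62 ± 0.17). XTH31 (AT3G44990) read 2010, 2570 and 2870 in gnc gnl, against 1040, 1070 and 1010 in WT (1.24 ± 0.12). These groups were all separate. XTH23 (AT4G25810, 1.32 ± 0.15), XTH18 (AT4G30280, 0.98 ± 0.09), XTH19 (AT4G30290, 1.05 ± 0.14), XTH17 (AT1G65310, 0.55 ± 0.10), XTH8 (AT1G11545, 0.76 ± 0.14) and XTH7 (AT4G37800, 0.73 ± 0.14) rose too. Among the expansins, which loosen walls without cutting them, EXPA16 (AT3G55500, 0.92 ± 0.14), EXPA11 (AT1G20190, 0.70 ± 0.14), EXLA1 (AT3G45970, 0.64 ± 0.16) and EXLA2 (AT4G38400, 0.34 ± 0.09) rose. EXPA15 (AT2G03090, -0.55 ± 0.10), EXPB1 (AT2G20750, -0.62 ± 0.18, 2 WT values) and EXPB3 (AT4G28250, -0.31 ± 0.10) fell. Leaving out 1 array left 11 to 14 rises, and 1 fall without gnc gnl replicate 1 or 3 or WT replicate 2 or 3.

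Of the cuticle and wax genes, 11 were higher in gnc gnl. Of 22 tested genes 11 rose and 2 fell (59.1%, against 24.6% of all genes), with a median of 0.32 that was 0.08 with slide as a block. The lipid transfer protein LTP2 (AT2G38530) read 2650, 3390 and 4190 in gnc gnl, against 1450, 1630 and 1530 in WT (1.12 ± 0.14). KCS1 (AT1G01120), an enzyme of very-long-chain fatty acid elongation, read 2290, 2280 and 2600 in gnc gnl, against 1490, 1520 and 1510 in WT (0.66 ± 0.13). Both were separate between the groups. The alcohol-forming reductase CER4 (AT4G33790) rose by 0.87 ± 0.17 and CER2 (AT4G24510) by 0.63 ± 0.11. The transcription factor MYB106 (AT3G01140) fell by 0.63 ± 0.07, and the alkane-forming CER1 (AT1G02205) by 0.49 ± 0.15. Without gnc gnl replicate 2, 6 rose, and 7 rose without gnc gnl replicate 3 or any single WT array, while 1 fell without any single array other than WT replicate 1.

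The anthocyanin genes that rose varied among the gnc gnl arrays. Of 24 tested flavonoid genes 11 rose and 1 fell (50%, against 24.6% of all genes), with a median of 0.29 (0.40 with slide as a block). MYB75 (AT1G56650), an activator of anthocyanin synthesis, read 21.9, 63.3 and 35.1 in gnc gnl, against 9.90, 9.33 and 12 in WT (1.82 ± 0.34, adjusted p = 0.00462). DFR (AT5G42800), the first enzyme of the anthocyanin branch, read 71.9, 177 and 94.0 in gnc gnl, against 45.1, 46.0 and 53.9 in WT (1.14 ± 0.30). The groups were separate in both genes, and gnc gnl replicate 2 was the highest array in both. LDOX (AT4G22880, 1.31 ± 0.27), the anthocyanin carrier TT19 (AT5G17220, 1.43 ± 0.34), the glycosyltransferase UF3GT (AT5G54060, 1.34 ± 0.36) and the regulator TT8 (AT4G09820, 0.98 ± 0.27) rose, as did chalcone synthase TT4 (AT5G13930) by 0.64 ± 0.14. AT1G03940 fell by 0.74 ± 0.16, while its other probe changed by 1.39. Of the rises, 5 were seen without WT replicate 2, without gnc gnl replicate 2, 6, and under normexp 4.

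**Figure D3:**
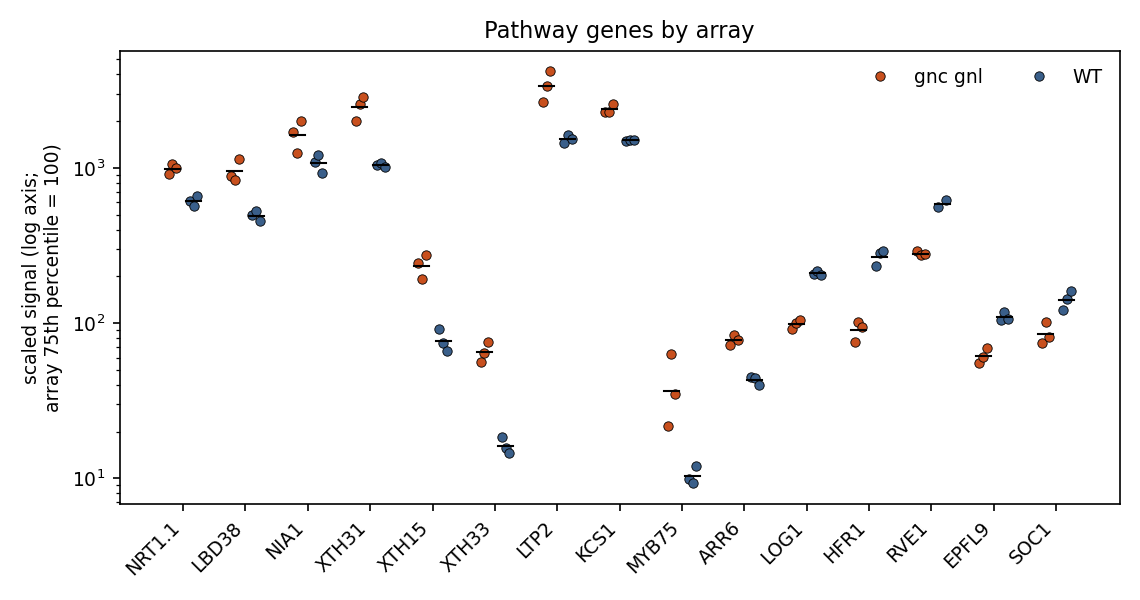
Scaled signal on a log axis of 15 genes of nitrogen supply, wall loosening, cuticle, anthocyanin, cytokinin, light, clock, stomatal and flowering lists, with 1 point per array for gnc gnl (orange) and WT (blue) and a bar at the mean of the log2 values. The genes from NRT1.1 to ARR6 are higher in gnc gnl and those from LOG1 to SOC1 lower, and in all 15 the 2 groups are apart.

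Among cytokinin genes, single members moved in opposite directions. Of 33 tested genes 5 rose and 2 fell (21.2%, against 24.6% of all genes), with a median of 0.14. LOG1 (AT2G28305), which releases active cytokinin from its nucleotide, read 91.5, 99.5 and 105 in gnc gnl, against 208, 217 and 203 in WT (-1.09 ± 0.10, adjusted p = 8.76e-05), and passed with slide as a block too (-1.46, adjusted p = 0.0395). ARR6 (AT5G62920), a response regulator that cytokinin induces, read 72.1, 83.9 and 78.1 in gnc gnl, against 45.1, 44.1 and 39.9 in WT (0.86 ± 0.12). The groups were separate in both. The synthesis gene IPT3 (AT3G63110, 0.61 ± 0.14), the response factors CRF1 (AT4G11140, 0.60 ± 0.18) and CRF6 (AT3G61630, 0.38 ± 0.08) and the oxidase CKX1 (AT2G41510, 0.37 ± 0.12) rose, while the oxidase CKX6 (AT3G63440) fell by 0.38 ± 0.12. Without WT replicate 2, 2 rose, and without gnc gnl replicate 3, 3, while 1 fell without gnc gnl replicate 3 or WT replicate 1 or 2.

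Gibberellin genes moved in both directions by small amounts. Of 28 tested genes 7 rose and 4 fell (39.3%, against 24.6% of all genes), with a median of 0.12 that was -0.13 under normexp. The kaurene oxidase GA3 (AT5G25900) read 241, 241 and 253 in gnc gnl, against 192, 183 and 181 in WT (0.40 ± 0.06, adjusted p = 0.00194), a separation of the groups. The receptors GID1A (AT3G05120, 0.32 ± 0.08) and GID1B (AT3G63010, 0.28 ± 0.08), SCL3 (AT1G50420, 0.34 ± 0.07), SLY1 (AT4G24210, 0.22 ± 0.07), which marks DELLA proteins for destruction, the catabolic GA2OX6 (AT1G02400, 0.52 ± 0.16) and GASA6 (AT1G74670, 0.42 ± 0.13) rose. The DELLA genes RGL2 (AT3G03450, -0.43 ± 0.12), RGL3 (AT5G17490, -0.34 ± 0.09) and GAI (AT1G14920, -0.23 ± 0.07) and the kaurene synthase GA2 (AT1G79460, -0.36 ± 0.09) fell. Without WT replicate 2, 2 rose and 1 fell. Without WT replicate 3, 3 rose and 0 fell, and without gnc gnl replicate 3, 4 rose and 0 fell. Without gnc gnl replicate 2, 3 rose and 2 fell, without WT replicate 1, 4 rose and 2 fell, and without gnc gnl replicate 1, 7 rose and 2 fell. Of 29 auxin response genes, 4 rose and 5 fell, while 12.5% of all genes rose and 12.1% fell. Those that passed included the repressor IAA29 (AT4G32280), at 20.0, 22.4 and 22.3 in gnc gnl against 35.4, 35.8 and 31.7 in WT (-0.67 ± 0.15). The amido synthetase GH3.9 (AT2G47750, 0.91 ± 0.11) was another. In that list 3 fell without gnc gnl replicate 1 or WT replicate 2.

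Light signalling and the clock held 2 of the clearest regulator changes. HFR1 (AT1G02340), which restrains growth in shade, read 75.5, 102 and 93.9 in gnc gnl, against 234, 285 and 290 in WT (-1.58 ± 0.11, adjusted p = 2.43e-05, and -1.60 with slide as a block, adjusted p = 0.0824). RVE1 (AT5G17300), a clock-controlled MYB factor, read 291, 273 and 278 in gnc gnl, against 557 and 619 in WT, where 1 value was removed (-1.06 ± 0.11), and passed with slide as a block (-1.06, adjusted p = 0.0205). The standard error of RVE1 was 0.109 without the block and 0.111 with it, while the median over all genes rose from 0.102 to 0.226. Its pass with the block therefore cannot be read as adjusted for slide. All gnc gnl arrays were below all WT arrays in both genes. In the light list 6 of 31 rose and 3 fell (29.0%, against 24.6% of all genes, median 0.01), including the photoreceptor PHYA (AT1G09570, 0.41 ± 0.06) and PIF3 (AT1G09530, 0.51 ± 0.10), higher, and PHYE (AT4G18130, -0.36 ± 0.09), lower. In the light list 2 rose without gnc gnl replicate 3 or WT replicate 2 and 3 without gnc gnl replicate 2 or WT replicate 1 or 3, while 1 fell without WT replicate 1 or 2. In the clock list 7 of 27 fell and GI (AT1G22770, 0.47 ± 0.07) rose (29.6%, against 24.6% of all genes, median -0.18). The falls included CDF1 (AT5G62430, -0.57 ± 0.09), CDF2 (AT5G39660, -0.47 ± 0.09), LNK1 (AT5G64170, -0.41 ± 0.07) and RVE8 (AT3G09600, -0.41 ± 0.09). Leaving out 1 array left 7 or 8 falls.

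Flowering time genes moved in both directions. Some repressors were higher and some promoters lower, but the repressor SVP was lower and GI higher. Of 22 tested genes 5 rose and 4 fell (40.9%, against 24.6% of all genes), with a median of -0.01. FLC (AT5G10140), a floral repressor, read 36.9, 34.1 and 39.2 in gnc gnl, against 24.0, 26.7 and 24.4 in WT (0.55 ± 0.09, adjusted p = 0.0023). SOC1 (AT2G45660), a promoter of flowering, read 74.4, 102 and 81.7 in gnc gnl, against 122, 144 and 161 in WT (-0.73 ± 0.14, adjusted p = 0.00525). Neither overlapped between the groups. The repressors MAF4 (AT5G65070, 0.79 ± 0.18), SMZ (AT3G54990, 0.67 ± 0.10) and TEM1 (AT1G25560, 0.61 ± 0.11) rose with FLC, while the repressor SVP (AT2G22540) fell by 0.27 ± 0.08 and the promoters SPL3 (AT2G33810) and SPL5 (AT3G15270) by 0.95 ± 0.24 and 0.92 ± 0.28. The number of rises was 5 when any single array was left out, while 1 fall passed without gnc gnl replicate 1 or WT replicate 3 and 2 without WT replicate 2. Under normexp 2 rose and 1 fell. SEP3 (AT1G24260), a flower identity gene and 1 of 3 tested genes among 17 pollen and flower markers, read 37.3, 28.1 and 42.4 in gnc gnl, against 14.2, 10.2 and 15.1 in WT (1.45 ± 0.24, and 0.37 with slide as a block).

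Heat shock genes that changed were mostly lower, while cold and ethylene genes moved in both directions. Of 25 tested heat shock genes 13 fell and 1 rose (56.0%), at a median of -0.30, and the largest fall among those well above background in both groups was AT1G53540, at 3.96, 4.81 and 6.36 in gnc gnl against 22.6, 22.6 and 24.2 in WT. HSFA2 (AT2G26150, -0.67 ± 0.15), a factor that sustains the heat response, fell, and HSFA3 (AT5G03720, 0.97 ± 0.23) rose, with 2 rises without gnc gnl replicate 1 and 0 without WT replicate 3. The heat shock falls numbered 10 without gnc gnl replicate 1 or 3, and 9 without WT replicate 2 or 3 or under normexp. In the cold list 4 of 20 fell and 1 rose (25%, against 24.6% of all genes, median -0.22). It had 3 rises without gnc gnl replicate 1. CBF2 (AT4G25470), an activator of cold-regulated genes, read 2.52, 2.77 and 4.19 in gnc gnl, against 11.9, 8.74 and 7.58 in WT (-1.58 ± 0.21), and its known target COR15B (AT2G42530) read 2.17, 6.74 and 4.0 in gnc gnl, against 16.2, 17.1 and 20.9 in WT (-2.21 ± 0.38). In both genes the groups were separate. The hypoxia list had a median of -0.51 (-0.22 with slide as a block), with 4 of 18 lower and 2 higher, and its falls numbered 12 without gnc gnl replicate 3, 4 without WT replicate 2 and 0 or 1 without any other single array. Of 19 ethylene genes 5 rose and 2 fell, with 3 rises without WT replicate 2 and 1 fall without any single array. Over all genes 12.5% rose and 12.1% fell. In the touch list DREB26 (AT1G21910) rose by 1.81 ± 0.18, whereas the calmodulin-like gene CML37 (AT5G42380) fell by 1.78 ± 0.26.

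Starch genes and nutrient lists showed single changes. The granule-bound starch synthase GBSS1 (AT1G32900) read 666, 643 and 603 in gnc gnl, against 861, 1000 and 886 in WT (-0.52 ± 0.08), and APL1 (AT5G19220), a subunit of the enzyme that makes ADP-glucose, fell by 0.39 ± 0.06. In all, 6 of 32 starch and sugar genes fell and 3 rose (28.1%, against 24.6% of all genes), with a median of 0.001. Leaving out WT replicate 2 left 3 falls and 1 rise, and leaving out gnc gnl replicate 2 left 0 rises. In phosphate starvation, SQD2 (AT5G01220, -0.91 ± 0.23) and 2 further genes of 23 fell, and RNS1 (AT2G02990), a secreted ribonuclease, read 118, 224 and 148 in gnc gnl, against 47.1, 44.2 and 60.6 in WT (1.66 ± 0.22). In that list 1 gene fell without gnc gnl replicate 2 or WT replicate 1, and 0 without gnc gnl replicate 3 or WT replicate 3. Of 27 genes for iron and sulfur supply 5 rose and 2 fell (3 rose without WT replicate 3, and 0 fell without WT replicate 2), among them the sulfur deficiency gene SDI1 (AT5G48850) at 604, 553 and 337 in gnc gnl, against 252, 218 and 255 in WT (1.0 ± 0.20). Every gnc gnl array of RNS1 and SDI1 was above every WT array.

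**Figure D4:**
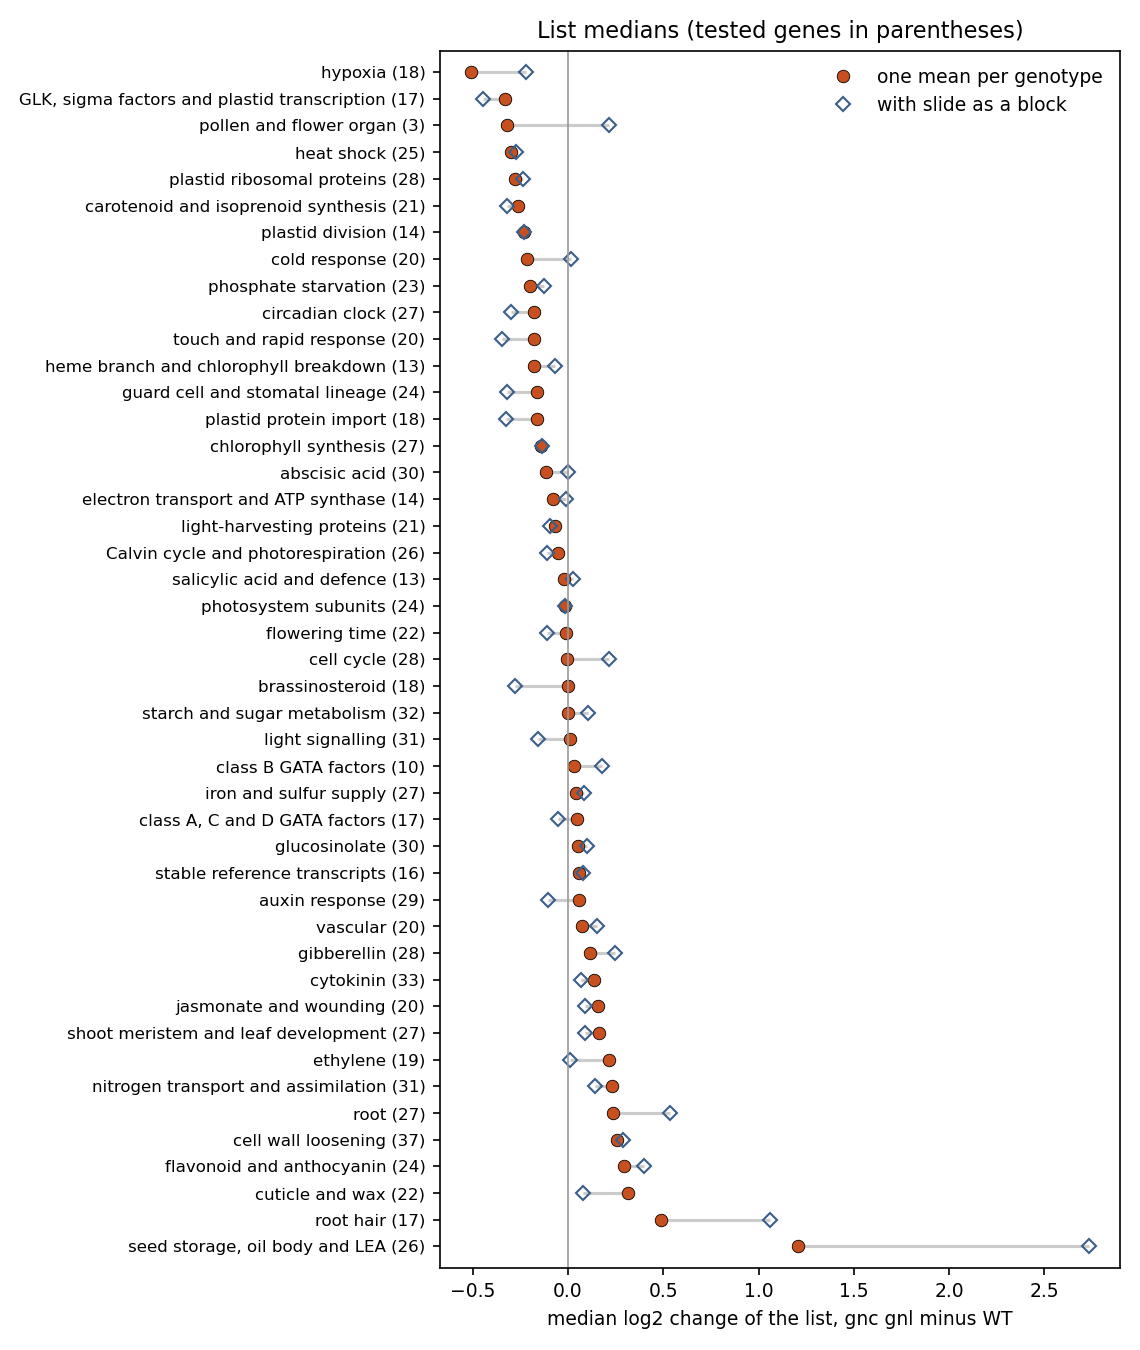
Median log2 change (gnc gnl minus WT) of each of 45 gene lists, with the number of tested genes in parentheses, from the fit with 1 mean per genotype (orange circles) and with slide as a block (open blue diamonds). Plastid transcription, carotenoid, division and heat shock lists stay below 0 in both fits, cell wall loosening stays near 0.26 to 0.29, and the seed and root hair lists move furthest between the fits.

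Marker lists of tissues and cell types were read in the same way. Seed storage, oil body and late embryogenesis genes included the largest rises, and their level differed among the gnc gnl arrays. The summed signal of 26 tested seed genes was 3661, 1412 and 566.4 in gnc gnl replicates 1, 2 and 3, against 382.6, 336.4 and 407.4 in WT. CRU3 (AT4G28520), a cruciferin storage protein, read 894, 244 and 58.7 in gnc gnl, against 47.4, 8.99 and 8.28 in WT (3.94 ± 0.92, adjusted p = 0.0122). The groups did not overlap, but the gnc gnl arrays differed among themselves by more than the lowest of them differed from WT replicate 1. Of the 26, 11 rose (42.3%, against 12.5% of all genes) at a median of 1.21 (2.73 with slide as a block). The count was 7 without gnc gnl replicate 1, 6 without WT replicate 1, 4 without WT replicate 3 and 2 without WT replicate 2, and under normexp 0 of 26 passed in limma's test.

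Root hair markers rose in 6 of 17 (35.3%, against 12.5% of all genes), at a median of 0.49 and 1.06 with slide as a block. EXPA7 (AT1G12560), a root hair expansin, read 71.8, 81.2 and 49.7 in gnc gnl, against 43.2, 26.2 and 37.9 in WT (0.92 ± 0.22), and RSL4 (AT1G27740), a regulator of hair growth, read 43.1, 42.6 and 28.6 in gnc gnl, against 25.5, 16.9 and 23.2 in WT (0.80 ± 0.24). In both genes the lowest gnc gnl array was just above the highest WT array. The summed signal of the list ran from 450.3 to 631.9 in gnc gnl and from 311.9 to 457.7 in WT, which overlapped. A single gene rose without WT replicate 2, without gnc gnl replicate 1 or 2, 2 rose, and without gnc gnl replicate 3, 9 rose. Of 27 root markers 5 rose (18.5%, against 12.5% of all genes, median 0.24), and the summed signal of that list was 18580 to 20670 in gnc gnl and 17250 to 18870 in WT. The part of these tissue markers in the changes of the nitrogen and wall lists was not tested.

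In the guard cell and stomatal list 4 of 24 fell and 1 rose (20.8%, against 24.6% of all genes, median -0.17). The summed signal was 1720 to 1902 in gnc gnl and 1955 to 2098 in WT. EPFL9 (AT4G12970), a mesophyll signal that promotes stomata, read 55.1, 60.9 and 69.0 in gnc gnl, against 105, 118 and 106 in WT (-0.84 ± 0.10, adjusted p = 4.47e-04). The guard cell channels KAT1 (AT5G46240, -0.60 ± 0.10) and SLAC1 (AT1G12480, -0.55 ± 0.10) and SCRM2 (AT1G12860, -0.36 ± 0.10) fell, and the receptor kinase ERL2 (AT5G07180, 0.44 ± 0.09) rose. The lineage regulators SPCH (0.13), MUTE (-0.23) and FAMA (-0.25) did not pass. In the shoot meristem and leaf list 9 of 27 rose and 1 fell (37.0%, against 24.6% of all genes, median 0.16), with the boundary genes CUC1 (AT3G15170, 0.57 ± 0.17), CUC2 (AT5G53950, 0.57 ± 0.13, but -0.34 under normexp) and CUC3 (AT1G76420, 0.32 ± 0.09), the homeobox genes KNAT1 (AT4G08150, 0.36 ± 0.10), KNAT2 (AT1G70510, 0.29 ± 0.08) and KNAT6 (AT1G23380, 0.40 ± 0.09) and the growth gene ARGOS (AT3G59900, 0.65 ± 0.16) among the rises. Without WT replicate 3, 3 rose, without WT replicate 2, 4, and without gnc gnl replicate 3, 5, and under normexp 2 rose. Of 28 cell cycle genes 2 rose and 1 fell, while 12.5% of all genes rose and 12.1% fell. That list had 1 rise without gnc gnl replicate 3 or WT replicate 1 or 2, and 2 falls without gnc gnl replicate 1 or 3. Of 16 transcripts used as stable references 2 fell (12.5%, median 0.06), with 1 fall without gnc gnl replicate 1 or 2 and 0 without any other single array.

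**Figure D5:**
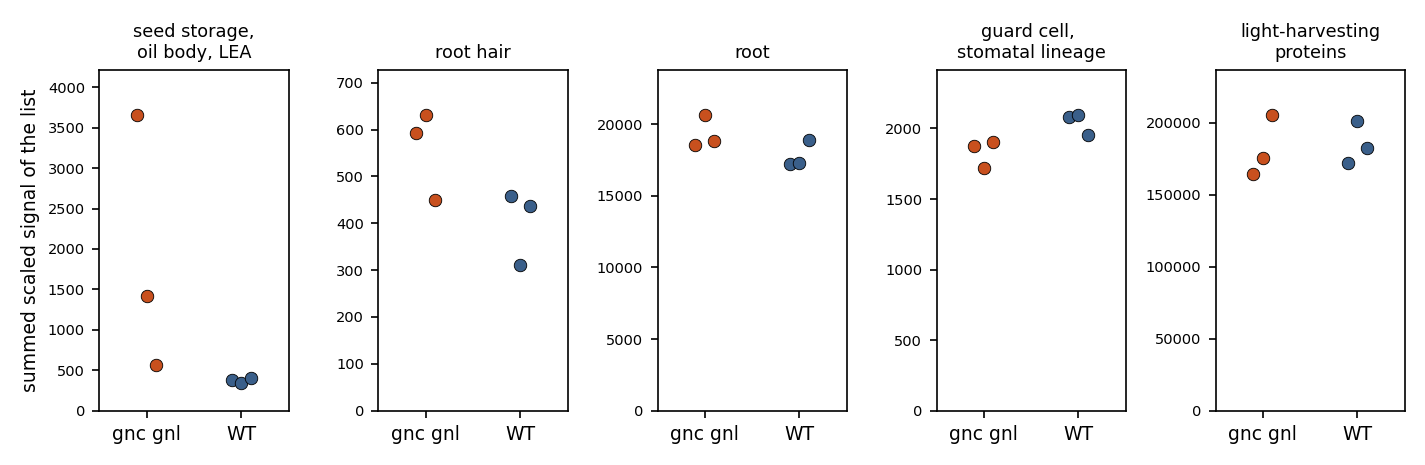
Summed scaled signal of 5 lists on each array, gnc gnl (orange) left of WT (blue), on linear axes that start at 0. The seed list spans 566.4 to 3661 in gnc gnl and 336.4 to 407.4 in WT, while the root, root hair and light-harvesting sums overlap between the genotypes and the guard cell sums do not.

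Across all genes, the rises and falls with the smallest p were chosen among those that passed without overlap of the groups. Of all tested genes, 42.5% did not overlap. Ranking by p favours genes with a small spread among arrays. AT5G44440 read 409, 381 and 500 in gnc gnl, against 91.5, 95 and 67.8 in WT (2.35 ± 0.15, adjusted p = 1.40e-05), and AT5G26270 read 103, 105 and 121 in gnc gnl, against 19.1, 21.8 and 22.3 in WT (2.38 ± 0.15). The disease resistance gene ADR1 (AT1G33560) read 60.5, 66.8 and 62.3 in gnc gnl, against 28.9, 30.1 and 30.7 in WT (1.08 ± 0.09). With slide as a block the changes of these genes were 2.49, 1.99 and 0.92, none of which passed. PTR3 (AT5G46050), a peptide transporter gene, rose by 0.80 ± 0.06 but read -0.078 under normexp, and rises were seen in AT4G11521 (2.51 ± 0.20) and AT3G43670 (0.97 ± 0.08). Among the largest rises outside the seed genes, the cell separation polygalacturonase PGAZAT (AT2G41850) read 14, 24 and 18 in gnc gnl, against 2.1, 1.8 and 1.7 in WT, not well above background, so it was at least 7.0-fold higher. CRK30 (AT4G11460), a receptor-like kinase, rose by 3.60 ± 0.60, AZI1 (AT4G12470) at least 4.01-fold, and the abscisic acid receptor PYL6 (AT2G40330) by 2.95 ± 0.60, which was 0.40 with slide as a block.

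On the falling side, AT3G10330, which encodes the general transcription factor TFIIB2, read 16.2, 19.3 and 21.5 in gnc gnl, against 96.0, 102 and 96.0 in WT (-2.38 ± 0.13, adjusted p = 5.71e-06). AT3G55710 read 15.8, 14.8 and 18.0 in gnc gnl, against 65.4, 69.6 and 66.8 in WT (-2.06 ± 0.10), and PGL5 (AT5G24420), a gluconolactonase of the pentose phosphate pathway, read 21.8, 19.6 and 28.5 in gnc gnl, against 94.6, 115 and 97.2 in WT (-2.15 ± 0.14). These 3 genes too were chosen among those that passed without overlap of the groups. All 3 passed with slide as a block (-2.59, -2.31 and -2.45, adjusted p = 0.011, 0.0102 and 0.0438). MBP1 (AT1G52040), a myrosinase-binding protein gene, fell by 2.13 ± 0.14, AT1G05540 by 1.73 ± 0.08, the MADS-box gene AGL87 (AT1G22590) by 1.36 ± 0.09 and GulLO4 (AT5G56490) by 1.68 ± 0.10. Of the 29 genes that passed with slide as a block, 23 were lower and 6 higher, and 27 were among the 4686. Others of the 29, named after their values were seen, were UGT74E2 (AT1G05680), a glycosyltransferase gene for an auxin precursor, at 156, 142 and 131 in gnc gnl against 444, 507 and 514 in WT (-1.77 ± 0.18), the nitrilase NIT4 (AT5G22300, -1.13 ± 0.08) and ATC (AT2G27550, 0.91 ± 0.18), a relative of the flowering repressor TFL1.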

How the data were processed

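Cy3-labelled cRNA from total RNA was hybridised to one-colour Agilent arrays. The deposited values are spot intensity on a linear scale, which per the file headers was background-subtracted and detrended by Agilent Feature Extraction (10.7.3.1 in the submitters' processing notes). No between-array scaling is recorded there. In the series table, 0 cells differed from these values.

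From 45220 spots per array, control spots (1417) and outlier spots were left out, spots of 1 probe averaged, and log2 intensity minus the 75th percentile of each array analysed. Of 43603 probes, 34285 matched 25383 loci through accessions in a TAIR10.1 table, and 9318 did not. No coordinates are printed, since the build behind the array design is not given in the sources used here. A probe entered when, in 1 genotype or more, all 3 arrays called it well above background, and each genotype kept 2 or more values. The brightest such probe stood for its gene. Outlier removal left 756 values missing, in 647 genes, which were set to the genotype mean only in the summed signals of lists.

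The model, fitted in R 4.3.3 by limma 3.58.1 with input read by data.table (version 1.17.8), had a mean for each genotype, used the 12 arrays and left 8 residual degrees of freedom, and the contrast was adjusted by Benjamini-Hochberg over 19020 genes at 0.05. The fit was checked on simulated data with independent noise and no slide effect. It recovered 60.6% of log2 changes of 0.5, 82.1% of 1 and 100% of 2. With no slide effect simulated, this check cannot speak to genotype and slide. Where a gene was at background on every array of 1 genotype, its fold is a lower bound ("at least"): the brighter mean is divided by a floor, taken per dim array as the larger of the dimmest signal called above background and the signal of the probe. Slides came from the scanner files. A normexp correction (offset 50) used the median spot signal, since the planned mean spot signal was not among the columns used here. Other alternatives covered scaling, filters, outlier spots, probe choice, blocks, weights, the arrays fitted and each array left out. Figures were drawn with matplotlib 3.10.9.

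The comparison and the 45 lists (1100 entries) were chosen with earlier results of these data known. For 46 entries the listed symbol was not in the reference table, and loci are printed beside symbols for that reason. Named genes were GNC, GNL and ARF2, those among the 12 largest changes and the 12 smallest p each way among genes that passed without overlap, up to 5 members per list with the smallest p, and the class B GATA genes. Further list members were named after their values were seen.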

Additional observations from a re-analysis of the deposited data

Results flagged for a closer look

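Probes without a matched locus were not used in the comparison above. In gnc gnl against WT, 617 of 3297 such probes that met the same filter passed limma's test (18.7%). Of these, 200 were higher in gnc gnl, 417 were lower, and 148 differed at least 2-fold.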

How the results depend on the processing

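The count of 4686 genes was 2191 under normexp (51.26% of them higher, against 50.79%), 29 with slide as a fixed block and 428 for a log2 change of at least 1. Leaving out 1 array gave 2376 (without WT replicate 2) to 4202 genes. The other alternatives gave 3319 (only the 6 arrays compared) to 4964 (quantile normalization), with 4248 for slide as a random block and 3680, 58.45% of them higher, under median scaling. The random block rests on a correlation of 0.026, estimated only within the other 2 genotypes. Replicate numbers did not pair the samples: deviations of same-numbered gnc gnl and WT arrays correlated at 0.37, -0.37 and -0.12. Across numbers, gnc gnl replicate 2 correlated with WT replicate 3 at 0.48, and gnc gnl replicate 3 with WT replicate 2 at 0.39. The remaining pairs lay between -0.40 and 0.010. With the replicate number as a block 4320 genes passed.

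Single genes changed direction. With slide as a block, ABCI9 read 0.22, AT5G51610 0.0019, AT2G39590 0.052 and AT1G03940 0.024, all lower without it. Under normexp, PTR3 read -0.078, GolS3 -0.10, FMO1 -0.32, ACS7 -0.22, GATA16 -0.32 and CUC2 -0.34, all higher otherwise. With the mean of all probes, AT1G03940 read 0.32, PDV2 1.1, IAA13 0.016 and HSP90.1 0.079. With the lowest passing probe, AT1G03940 read 1.39, LSU1 -0.12 and MYB36 -0.17. The cause was not tested. Of 233 named genes, 21 kept their side of the threshold with slide as a block without a change of direction in a gene that passed. These include genes that passed in neither fit, whose direction could differ, such as GATA17L (-0.20 without the block and 0.04 with it). Signals near background allow only bounds, as for 116 genes that passed.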
